A study of Homo sapiens with 2 samples.

Results

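The zinc finger genes of human chromosome 19 were described here as the genes whose symbol is ZNF followed by a number, with at most 1 letter after it, and whose listed position is on that chromosome. The rule found 255 of the 55797 genes in the deposited tables, and a further 302 genes with such a symbol lay on other chromosomes. The rule used names and positions and no expression value. Of the 255, 251 were found by their identifier in GENCODE release 44 on the same build (GRCh37, hg19), where 239 are protein-coding, 11 are pseudogenes and 1 is a long non-coding RNA. ZNF229, ZNF550, ZNF8 and 1 of the entries for ZNF154 were not matched. Of the matched entries, 11 carry a different name there, among them an entry for ZNF807 that is a ribosomal protein pseudogene (RPS26P55) and an entry for ZNF625 that is a readthrough into ZNF20.

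H1 is an established human embryonic stem cell line. Its cells were differentiated stepwise to Stage 6, a mixed culture that contains insulin-expressing cells, and RNA sequencing was done on 2 samples of that culture. RNA of the live sample came straight from unfixed cells with the RNeasy kit. The processed sample went through MARIS, a protocol for obtaining RNA from cells sorted on an intracellular stain: fixation in 4% paraformaldehyde, permeabilization, antibody staining, a mock sort that kept all cells, and RNA extraction with a modified RecoverAll kit. The comparison of the samples asks how far this handling leaves the expression profile of the same cells as it was. Fixation, staining, sorting and the extraction kit differ together between the samples and cannot be told apart. There was 1 sample per condition, so differences have no replicate check and no test was run.

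Expression was given as FPKM, fragments per kilobase of transcript scaled to the size of the library, which allows levels to be compared between genes per length. Each value comes with a lower and an upper bound that the authors' software set for that library alone, at a level that is not stated. The tables give no read total for either library, so the precision of a value is given here by these bounds. A gene was called expressed where either sample reached 1 FPKM, and ratios are log2((processed + 1) / (live + 1)), which understates the difference of low genes. "More than 2-fold" refers to this ratio. All 7 endocrine and pancreatic marker genes were present in both libraries, from 13.1 to 1790 FPKM in live cells and from 15.2 to 1740 FPKM after processing, and none differed more than 2-fold. The highest of them was CHGA. Its bounds in processed cells ran from 0 to 4710 FPKM, so its level there and its ratio are very uncertain. Of 4 pluripotency genes, LIN28A (119 and 88.7 FPKM), SOX2 (52.4 and 47.1 FPKM) and POU5F1 (7.92 and 8.53 FPKM) were within 2-fold in live and processed cells, and NANOG was listed at 1.27 and 7.34 FPKM, a log2 ratio of 1.88. The 3 mesenchymal genes were between 13.4 and 514 FPKM in live cells, and none differed more than 2-fold. In such mixed cultures, fewer cells of a type and less RNA per cell cannot be told apart.

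C2H2 zinc finger proteins bind DNA through a row of short fingers, each folded around a zinc ion held by a pair of cysteines and a pair of histidines. On chromosome 19 most of them also carry a KRAB domain near the start of the protein, which recruits the corepressor TRIM28 (KAP1) and through it the histone methyltransferase SETDB1, HP1 proteins and the NuRD complex. The genes lie in clusters that arose by tandem duplication, and many of the proteins bind and silence transposable elements, above all in early embryonic and pluripotent cells.

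The kinship of these genes can be seen in single fingers. The sequences below are the coding strand of 1 finger and its linker from each of 7 members, 78 bases each, read from GRCh37. They are shown because the family resemblance bears on how short reads are assigned to genes. Capitals mark the codons of the zinc-binding cysteines and histidines.
ZNF585A: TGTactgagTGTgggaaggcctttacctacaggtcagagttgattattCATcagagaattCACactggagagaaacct
ZNF585B: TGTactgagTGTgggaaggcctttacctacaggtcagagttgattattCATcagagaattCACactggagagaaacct
ZNF799: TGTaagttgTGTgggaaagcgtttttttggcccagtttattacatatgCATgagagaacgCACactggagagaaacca
ZNF443: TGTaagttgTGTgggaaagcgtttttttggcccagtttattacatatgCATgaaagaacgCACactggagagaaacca
ZNF146: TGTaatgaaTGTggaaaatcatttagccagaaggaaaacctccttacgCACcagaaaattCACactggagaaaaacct
ZNF808: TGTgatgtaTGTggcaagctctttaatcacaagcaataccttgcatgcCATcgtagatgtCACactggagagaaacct
ZNF91: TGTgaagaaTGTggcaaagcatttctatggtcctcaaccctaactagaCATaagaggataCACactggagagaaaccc

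These fingers lie at chr19:37643658-37643735 (ZNF585A, minus strand), chr19:37677296-37677373 (ZNF585B, minus), chr19:12502540-12502617 (ZNF799, minus), chr19:12542314-12542391 (ZNF443, minus), chr19:36727562-36727639 (ZNF146, plus), chr19:53056950-53057027 (ZNF808, plus) and chr19:23544902-23544979 (ZNF91, minus), each within 1 coding exon. The fingers of the neighbours ZNF585A and ZNF585B were the same in all 78 bases. Of the 11 fingers of ZNF585A with this spacing and linker, 7 were found base for base among the 10 of ZNF585B. Against the ZNF585A finger, ZNF146 had the same base at 56 of the 78 places, ZNF808 and ZNF91 at 51, ZNF799 at 50 and ZNF443 at 49. Of the other 6 fingers, then, only that of its neighbour was identical to that of ZNF585A.

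Most of the family was expressed, at low levels. Of the 255 genes, 218 reached 1 FPKM in at least 1 sample, 212 in live and 200 in processed cells, and 30 and 28 reached 10 FPKM. The median was 3.40 FPKM in live cells (interquartile range 1.86 to 6.30) and 2.97 FPKM in processed cells (1.42 to 5.46). In live cells, ZNF genes on other chromosomes had a median of 5.57 FPKM. Only 4 members were listed at 0 in both samples: ZNF257, ZNF729, ZNF861P and the entry for ZNF807 that is a ribosomal pseudogene. In live cells 6 others, and in processed cells 1, were detected while listed at 0 in the second sample, all of them far below 1 FPKM.

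The highest members in live cells were ZNF358 (53.3 FPKM live, 65.2 processed), ZNF444 (49.8 and 46.4), ZNF428 (49.1 and 48.3), ZNF146 (37.8 and 34.6) and ZNF561 (30.1 and 11.9). ZNF444 carries a SCAN domain, a protein interaction module found in some zinc finger proteins, and ZNF146 consists of fingers alone. Only ZNF561 among these 5 has a KRAB box, and it was the only 1 of the 5 with a difference of more than 2-fold. The next were ZNF738 (24.4 and 24.2 FPKM), ZNF579 (22.3 and 24.2), ZNF787 (21.3 and 23.1), ZNF581 (19.8 and 16.4) and ZNF266 (19.6 and 12.1). Of these 10 highest members, 7 had no KRAB box.

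A KRAB A box was looked for in the translated coding sequence of the 239 members with a coding transcript, upstream of the first finger. It was found in 203 and not in 36, and 16 members had no coding transcript to read. Among these 16 are the 4 entries not matched in GENCODE, which are not thereby shown to be non-coding. The search used protein patterns on the transcript chosen for each gene, so a member called without the box may still carry one. The KRAB proteins had a median of 13 fingers and up to 36, and those without a KRAB box a median of 9 and up to 20. Transcripts of the KRAB members were longer and poorer in G and C (median 4067 nt, 41.9% GC) than those without the box (2952 nt, 61.4% GC). Their levels had different medians: the live median was 3.29 FPKM with a KRAB box (interquartile range 1.96 to 5.4, maximum 30.1) and 7.62 FPKM without it (2.70 to 14.4, maximum 53.3). In processed cells the medians were 2.78 and 5.84 FPKM. The ranges of the classes overlapped widely in both samples.

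**Figure D1:**
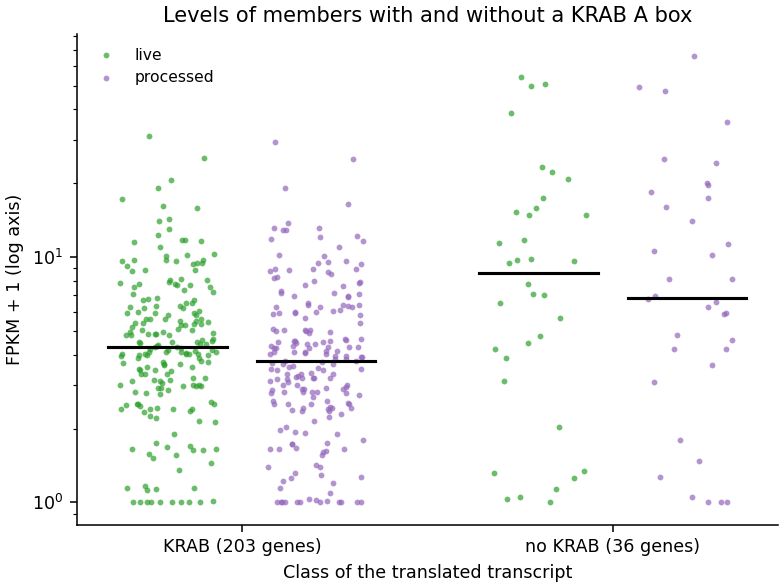
FPKM + 1 on a log axis of each member in which a KRAB A box was found by pattern (203 genes) or not found (36 genes), in live and processed cells, with each group's median as a bar. The medians with the KRAB box are 3.29 and 2.78 FPKM and without it 7.62 and 5.84 FPKM, while the points of the classes overlap.

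Few members differed between live and processed cells by more than 2-fold. Of the 218 expressed, 5 (2.29%) had a level after processing more than 2-fold above that in live cells, against 6.57% of all 17326 expressed genes. More than 2-fold lower were 13 (5.96%), against 6.19% of all genes. The share of lower members was thus near the background, that of higher members was below it, and 200 members stayed within 2-fold. Among members with a mean level of 1 to 10 FPKM, 4 of 183 (2.19%) were higher and 9 (4.92%) lower, while among all 8357 genes in that range 9.54% were higher and 7.34% lower. ZNF genes on other chromosomes had 1 higher and 9 lower among 246 expressed.

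The ratios leaned below 0. Their median was -0.14 (interquartile range -0.49 to 0.11), with 138 members below 0 and 80 above, against a median of -0.09 over all expressed genes and -0.18 over the ZNF genes on other chromosomes. Summed over the members, FPKM went from 1354 in live to 1247 in processed cells, a ratio of 0.921, where the sum over all genes had a ratio of 0.978. The order of the genes was largely kept, with a Spearman rank correlation of 0.84 between the samples across the 218 expressed members, which are not independent replicates. The authors' bounds did not overlap for 157 members (72.0%), against 71.8% of all genes. These bounds were narrow, reaching a median of 7.45% of the level to either side in live and 8.16% in processed cells, and they hold no variation between samples.

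**Figure D2:**
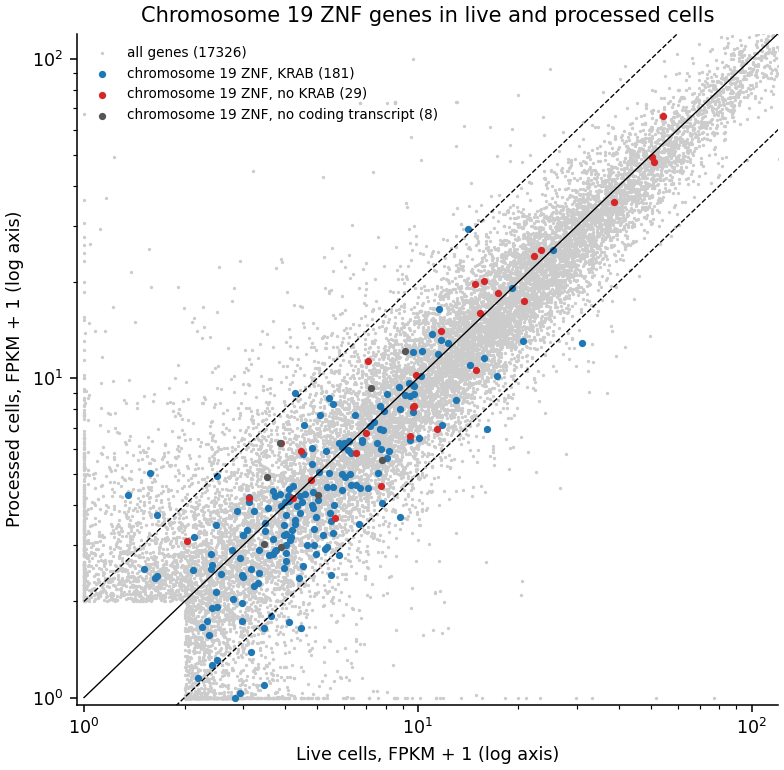
FPKM + 1 in live cells (horizontal) and processed cells (vertical), both on log axes, for the expressed members coloured by class over all 17326 expressed genes in grey, with lines of equality (solid) and of a 2-fold ratio (dashed). Genes beyond the axis limits are not drawn, and 200 of the 218 members lie within the dashed lines. The class with no coding transcript includes the entries not matched in GENCODE.

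The lean was largest among low members. Those with a mean under 3 FPKM had a median ratio of -0.33 over 82 expressed genes, against -0.07 over all 4599 genes in that range. Of these members 3 (3.66%) were higher and 9 (11.0%) lower, both below the 14.3% and 15.7% of all genes in the range. Between 3 and 10 FPKM the median was -0.11 over 108 members, as over all genes, and 1 member (0.926%) was higher and 2 (1.85%) lower, against 6.68% and 4.81% of all genes. From 10 FPKM the median was 0.05 over 28 members, against -0.09 over all genes, and 1 member (3.57%) was higher and 2 (7.14%) lower, against 1.94% and 1.42%. The classes had different medians as well. The 181 expressed KRAB members had a median ratio of -0.21, with 120 below 0 and 61 above, and their summed FPKM went from 887 to 768. The 29 expressed members without a KRAB box had a median of 0.01, with 14 below 0 and 15 above, a range from -0.75 to 0.69, and a sum that went from 429 to 437 FPKM. All 18 members past 2-fold had a KRAB box, as did 181 of the 218 expressed members. Of the 18, 15 had a mean under 10 FPKM, where most expressed members lay. KRAB members were also lower, longer and poorer in GC than the others, and the part of these features in the ratios was not tested. Across the 214 expressed members with a transcript the rank correlation of the ratio was -0.15 with transcript length and 0.12 with GC content.

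The 5 members more than 2-fold higher in processed cells began from low levels, with 1 exception. ZNF471, a gene often silenced by methylation in tumours, was at 0.576 FPKM in live cells (bounds 0.472 to 0.680) and 4.03 FPKM in processed cells (3.32 to 4.74), a log2 ratio of 1.67. ZNF442 went from 0.351 FPKM (0.260 to 0.443) to 3.31 FPKM (2.67 to 3.95), also 1.67. Both genes were thus under 1 FPKM in live cells and over 3 FPKM in processed cells. ZNF221 was at 0.653 and 2.73 FPKM (1.17), and ZNF577 at 3.30 and 7.97 FPKM (1.06). ZNF317 was the exception, at 13.1 FPKM (11.8 to 14.5) in live and 28.4 FPKM (26.3 to 30.5) in processed cells (1.06). In all 5 the bounds of the samples were apart, as they were for 71.8% of all expressed genes. With narrow bounds this mostly follows from choosing genes past 2-fold.

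The 13 members more than 2-fold lower included 3 that were near 0 in processed cells. ZNF114 was at 2.46 FPKM in live cells (bounds 2.24 to 2.69) and 0.0936 FPKM in processed cells (0.0745 to 0.113), the lowest ratio of all members at -1.66. ZNF573 was at 1.94 and 0.0324 FPKM (-1.51). ZNF20 was at 1.83 FPKM in live cells, and its estimate in processed cells was 2.45e-135 FPKM with an upper bound of 0.0563 FPKM, a ratio of -1.50. The gene overlaps a readthrough transcript from ZNF625, and their summed level is given further on.

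ZNF382, a gene often silenced by methylation in tumours, was at 3.47 FPKM in live cells and 0.648 FPKM after processing (-1.44), ZNF582 at 4.50 and 1.42 FPKM (-1.18), and 1 of the entries for ZNF154 at 3.12 and 0.726 FPKM (-1.26). The entries for ZNF154 summed were at 9.36 and 9.05 FPKM (-0.04). All 3 single values were over 3 FPKM in live cells and at 1.42 FPKM or less in processed cells. The highest of the lower genes were ZNF561 at 30.1 and 11.9 FPKM (-1.27) and ZNF606 at 15.1 and 5.93 FPKM (-1.22). ZNF626 was at 7.83 and 2.67 FPKM (-1.27), and ZNF426 at 4.82 and 1.80 FPKM (-1.05). The remaining 3, ZNF543, ZNF709 and ZNF235, were between 2.16 and 2.62 FPKM in live cells and between 0.392 and 0.798 FPKM in processed cells.

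**Figure D3:**
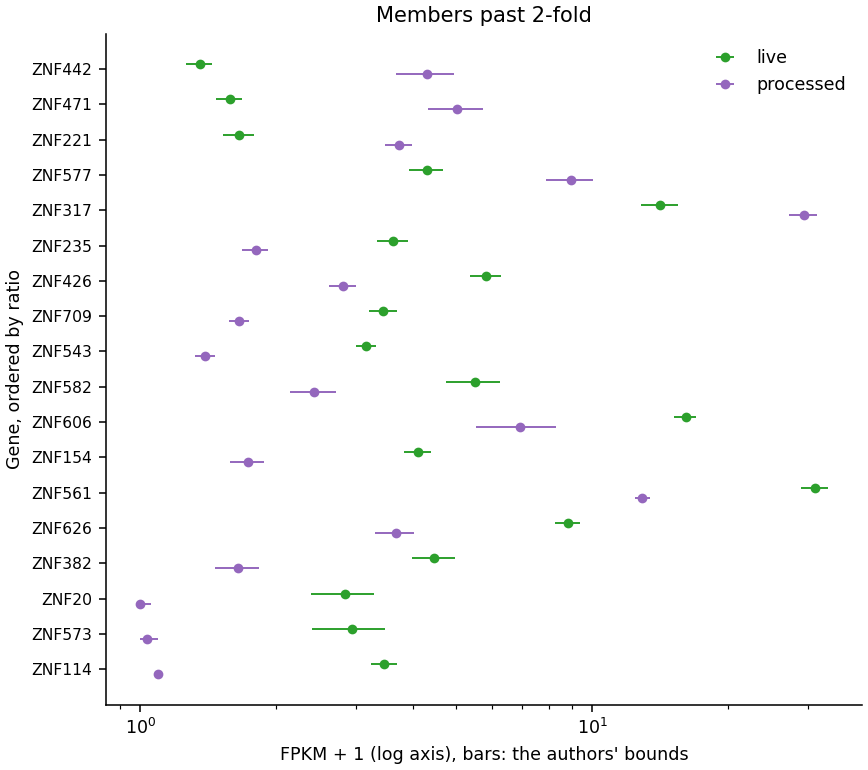
FPKM + 1 on a log axis of the 18 members more than 2-fold apart, in live and processed cells, with the authors' bounds for each library as bars, ordered by ratio. The bounds do not overlap for any of the 18, nor for 71.8% of all expressed genes. Of the 18, 13 are lower and 5 higher in processed cells.

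Genes just inside the limit had like values. ZNF585A, whose finger stands above, was at 1.51 and 3.94 FPKM (0.98), while its near copy ZNF585B, which it overlaps, was at 1.94 and 1.73 FPKM (-0.11). ZNF45 was at 6.80 and 3.06 FPKM (-0.94), and ZNF547 at 1.20 and 0.148 FPKM (-0.94).

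Some of the 18 overlap another expressed gene. Strand-specific counting was not given in the sources used here, so reads from overlapping genes cannot be told apart with certainty. Of the 75 members whose span overlaps an expressed gene, 67 were expressed, and 1 of these was higher (1.49%) and 9 lower (13.4%), with a median ratio of -0.26. Of the 180 with no such overlap, 151 were expressed, and 4 were higher and 4 lower (2.65% each), with a median of -0.13. Over all expressed genes, with or without an overlap, 6.57% were higher and 6.19% lower. Members without an overlap were thus below both shares, and those with an overlap were above the share of lower genes only. Among the 18, 10 overlapped an expressed gene and 8 did not. ZNF114, ZNF471, ZNF442, ZNF221, ZNF317, ZNF426, ZNF626 and ZNF543 were the 8 without an overlap.

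In several overlaps the gene on the same stretch had a ratio above 0. ZNF573 overlaps CTD-2554C21.1, which was at 0.93 FPKM in live cells and 4.91 FPKM after processing. ZNF606 overlaps CTD-2368P22.1, at 1.76 and 4.08 FPKM, and ZNF709 overlaps CTD-3105H18.11, at 0.349 and 2.01 FPKM. The second entry for ZNF154 was at 6.24 and 8.33 FPKM, so that the entries went in opposite directions and their sum was nearly level. In other overlaps the partner was lower too: ZNF529, which overlaps ZNF382, was at 4.33 and 1.96 FPKM, and CTD-3116E22.4, which overlaps ZNF561, at 2.59 and 0.124 FPKM. ZNF20 shares 73.0% of its 80-base words with overlapping genes, and its sum with both ZNF625 entries was 12.6 FPKM in live cells and 9.26 FPKM after processing (-0.41). How far reads were exchanged between overlapping genes was not tested.

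Neighbours without an overlap had ratios of either sign. ZNF470, 37.3 kb from ZNF471, was at 3.40 FPKM in live cells and 1.36 FPKM after processing (-0.90), and the sum of this pair was 3.98 and 5.39 FPKM (0.36). ZNF155 begins 0.153 kb from the end of ZNF221 and was at 4.41 and 7.66 FPKM (0.68), the same direction as ZNF221. On the other side of ZNF221, ZNF45 had the ratio of -0.94 given above.

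Sequence shared with genes elsewhere was measured on the 80-base words of a transcript, the length of the reads. It is the share of words that also occur in a gene whose GENCODE position does not overlap it. The overlaps with expressed genes given above used the positions in the deposited tables instead, and these can differ. ZNF585A and ZNF585B overlap by the deposited positions, yet the words they share (9.9% and 13.7%) were counted as elsewhere. Of 251 members with a value, 96 shared any word and 11 shared at least 10%. None of the 18 members past 2-fold shared that much, and the highest among them was ZNF543 with 3.2%. These values leave out words shared only with overlapping genes. Such genes held 92.2% of the words of ZNF709, 73.0% of ZNF20 and 36.7% of ZNF582, and 8.7% or less for the rest of the 18. The lower ZNF154 entry was at 0.0% there, but its second entry was not matched in GENCODE, so words shared with that entry were not counted. Of 20 members sharing at least 5% with genes elsewhere, 15 were expressed, none of them was past 2-fold, and their median ratio was -0.23. Over all expressed genes 6.57% were higher and 6.19% lower, so few were to be expected among 15. The count of 0 therefore says little about shared sequence. Members sharing no word had a median of -0.13 over 133 expressed genes, with 2 higher and 8 lower. Among the expressed, ZNF417 shared 26.4% and ZNF587 17.9%, mostly with each other, and ZNF443 and ZNF799 shared 21.9% and 21.0%. The values of such pairs are uncertain, since the authors' counting may have split their reads. The rank correlation of sharing with the ratio was 0.05 across 214 members.

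**Figure D4:**
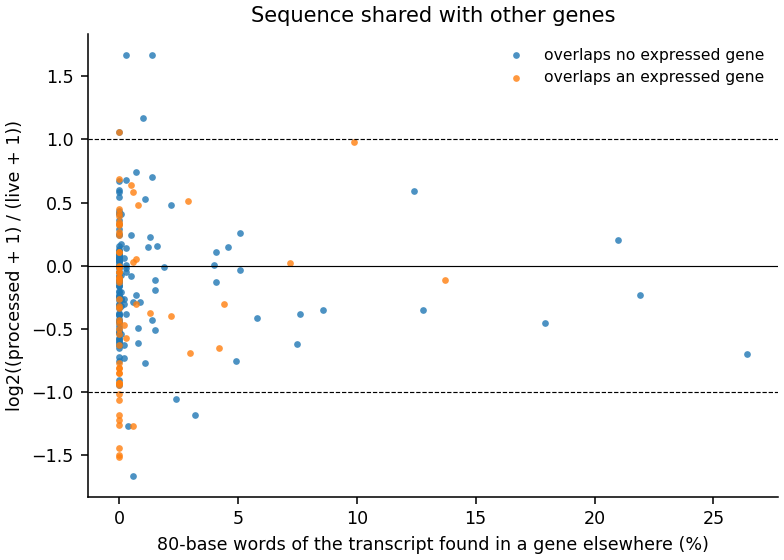
Log2 ratio of processed to live cells (FPKM + 1) against the percentage of 80-base words of each expressed member's transcript that are found in a gene elsewhere, coloured by whether the member overlaps an expressed gene. The 18 members beyond the dashed 2-fold lines all lie at 3.2% or less, and 199 of the 214 members drawn lie under 5%. Words shared only with genes that overlap by GENCODE positions are left out, while the colours use the deposited positions.

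Members lie in clusters along the chromosome. With a new cluster begun after a gap of over 1 Mb between neighbouring members, 9 clusters of at least 5 genes held 243 of the 255. They were lettered A to I from the short arm end. The largest were cluster I at chr19:55987699-58992591 with 60 genes, H at chr19:52074551-54083523 with 41, D at chr19:19779605-24312643 with 36 and C at chr19:11594242-12750912 with 28. All clusters held expressed members, from 3 of 5 in A to 58 of 60 in I. The highest gene by mean level was ZNF554 in A (3.81 FPKM live, 3.02 processed), ZNF358 in B, ZNF653 in C (10.7 and 13.1), ZNF738 in D, ZNF302 in E (16.2 and 9.17), ZNF146 in F, ZNF428 in G, ZNF160 in H (18.2 and 18.2) and ZNF444 in I.

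Members past 2-fold were found in 7 of the 9 clusters. Cluster I had 1 higher and 4 lower among 58 expressed genes, B had 1 and 2 among 14, C had 1 and 2 among 21, and F had 0 and 2 among 23. G had 1 and 1 among 21, H had 1 and 0 among 37, and D had 0 and 1 among 28. A and E, with 3 and 5 expressed genes, had none. Over all expressed genes 6.57% were higher and 6.19% lower, so low counts were to be expected in clusters of these sizes. A count of 0 in A and E is near that share. ZNF114, the lowest of all, lay outside the 9 clusters.

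The median ratio of the clusters ranged from -0.47 to -0.00. In D, at chr19:19779605-24312643, 24 of 28 expressed members were below 0, with a median of -0.27 and a sum that went from 207 to 172 FPKM. In F, at chr19:36673188-38307940, 17 of 23 were below 0, with a median of -0.47 and a sum from 124 to 98.4 FPKM. C, G and H had medians of -0.00, -0.01 and -0.05, with about as many members above as below 0, and H went from 193 to 192 FPKM. I had a median of -0.20, B of -0.14, A of -0.26 over 3 genes and E of -0.30 over 5. With 1 library per condition and neighbours that share sequence, these differences between clusters are a description.

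**Figure D5:**
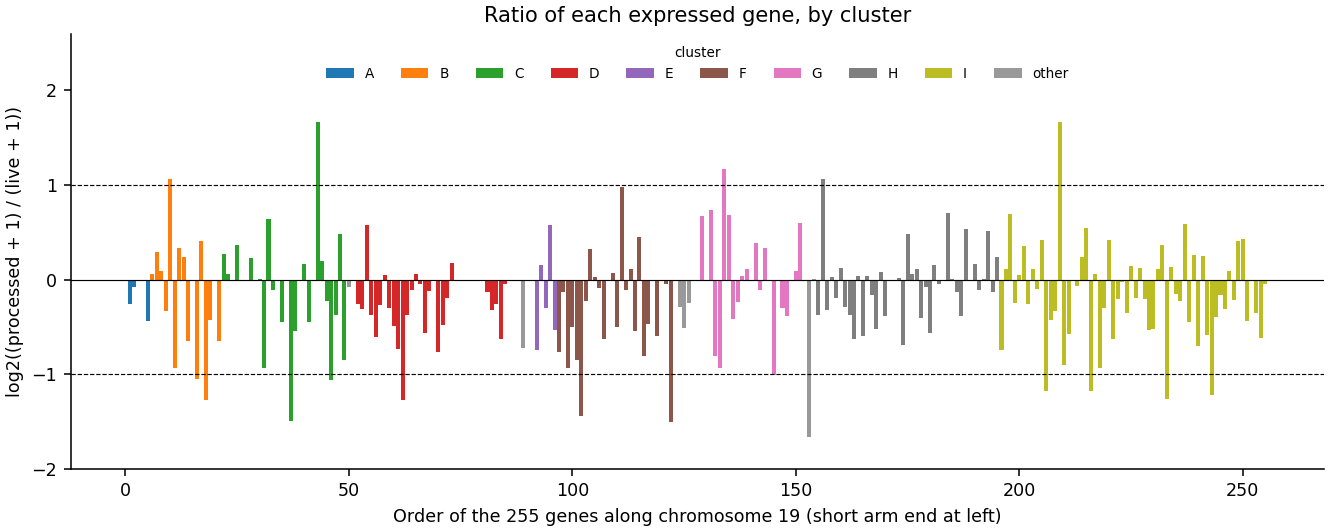
Log2 ratio of processed to live cells (FPKM + 1) of each expressed member, drawn in the order of the 255 members along chromosome 19 and coloured by cluster, with dashed lines at 2-fold. In cluster D 24 of 28 bars and in cluster F 17 of 23 point down, while in cluster H 18 point up and 19 down.

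A list of 15 members with a known role was drawn up with earlier results of these data known. ZNF471 and ZNF382, past 2-fold and described above, were not on it. The list held 14 expressed genes, of which 11 were below 0, with a median ratio of -0.29. Their range was from -0.70 to 0.24, so that none was past 2-fold in either direction. Over all expressed genes 6.57% were higher and 6.19% lower, so few were to be expected among 14, and a count of 0 is near that share. ZNF808, whose loss of both copies causes pancreatic agenesis, was at 2.48 FPKM in live cells and 2.52 FPKM after processing (0.02). It was hence present at a low level in both samples of this pancreatic culture.

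Among the listed repressors of transposable elements, ZNF808 had the ratio of 0.02 given above and the others had values below 0. ZNF91, which silences SVA elements, was at 6.54 and 5.28 FPKM (-0.26), and ZNF93, which silences LINE-1 elements, at 12 and 7.57 FPKM (-0.61). ZNF417 and ZNF587, a pair that represses HERV-K, were at 3.88 and 2.0 FPKM (-0.70) and at 14.8 and 10.6 FPKM (-0.45), with the shared sequence given above. None of these genes was past 2-fold.

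Other regulators with known targets gave small ratios of both signs. ZNF331, an imprinted gene, was at 9.29 FPKM in live cells and 11.2 FPKM after processing (0.24), the highest ratio of the list. ZNF274, which binds the 3' ends of zinc finger genes and brings SETDB1 there, was at 8.70 and 6.83 FPKM (-0.31). ZNF146, raised in pancreatic carcinoma, was at 37.8 and 34.6 FPKM (-0.13). ZNF224, a repressor of the aldolase A gene, was at 9.19 and 9.14 FPKM (-0.01), and ZNF568, whose mouse counterpart represses a placental Igf2 transcript, at 1.40 and 1.52 FPKM (0.07). These 5 genes stood in the same order of level in both samples.

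The other listed genes had ratios below 0 that did not pass 2-fold. ZNF675, an inhibitor of TRAF6 signalling, was at 9.10 and 5.51 FPKM (-0.63), and ZNF175, which suppresses HIV transcription, at 2.74 and 1.88 FPKM (-0.38). ZNF558, a repressor of SPATA18, was at 2.0 and 1.38 FPKM (-0.33), and ZNF350 (ZBRK1), a partner of BRCA1, at 2.98 and 2.48 FPKM (-0.20). ZNF536, a regulator of neuronal differentiation, was not expressed by the limit used, at 0.322 and 0.264 FPKM.

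Transcripts of the proteins that KRAB zinc fingers work through were, apart from ZFP57, all above 10 FPKM in both samples, higher than most members. TRIM28 was at 200 FPKM in live cells and at 179 FPKM after processing (-0.15). SETDB1 was at 27.0 and 32.9 FPKM (0.27), the HP1 genes CBX1, CBX3 and CBX5 were between 52.5 and 127 FPKM in live cells and between 43.8 and 111 FPKM after processing, and HDAC1 and HDAC2 of NuRD had ratios of 0.01 and -0.11. Of 20 such partners found in the tables, 19 were expressed, 12 of these were below 0, their median ratio was -0.11, and none was past 2-fold. Among all genes with a mean of at least 10 FPKM, 1.94% were higher and 1.42% lower, so a count of 0 among 19 is near that share. The lowest ratio was that of ATRX, a chromatin remodeller that works with DAXX, at 22.8 and 10.9 FPKM, just inside the limit at -1.0. Its FPKM values themselves lie slightly more than 2-fold apart, so its place inside the limit rests on the pseudocount. The partner not expressed was ZFP57, the KRAB zinc finger protein that guards imprints, at 0.0603 FPKM in live cells and listed at 0 in processed cells.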

How the data were processed

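Per the labels, paired reads of 80 nt were sequenced from 1 live and 1 processed sample. The submitters' processing notes name STAR 2.2.0c, Cufflinks 2.0.2 and the build GRCh37 (hg19). The authors deposited FPKM values per gene, normalized for transcript length and library size, with lower and upper bounds. Read counts were not used here, so no count model was run.

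Both tables were joined by gene identifier. Members, gene lists and rules were chosen with earlier results of these data known. Ratios used a pseudocount of 1 FPKM, genes at 1 FPKM or more in at least 1 sample, and a limit of 2-fold. With 1 sample per condition no test was run. Named genes were those with a known role, the 5 highest in live cells, the 5 largest rises and 5 largest falls, the highest of each cluster, any gene at 1 FPKM or more in one sample and 0 in the other (none), and TRIM28 with any partner past 2-fold. Other named genes were chosen after their values were seen, as were the printed fingers.

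Transcripts and coding sequences came from GENCODE release 44 on GRCh37. Fingers were counted by the spacing of cysteines and histidines, and KRAB A boxes by a pair of protein patterns that were widened once, after translations without a match and their levels had been seen. ZNF274 had a stop inside its translation and was left out of finger counts. Reference protein sequences were not used, and the patterns were read on translated coding sequences. Scripts ran in Python 3.11.15 with numpy 2.4.6, pandas 2.3.3, scipy 1.17.1 and matplotlib 3.10.9 and were tested on simulated data. Alternatives covered the pseudocount, the expression limit, scaling, overlapping genes, shared sequence and the cluster gap.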

Additional observations from a re-analysis of the deposited data

How the results depend on the processing

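The counts of members past 2-fold depended on the treatment of low values. The 5 higher members became 8 with a pseudocount of 0.1 FPKM, 10 with no pseudocount and 2 where 1 FPKM was required in both samples. The 13 lower members became 25, 27 and 5 under the same settings, and 4 where members overlapping an expressed gene were left out. With a mean of at least 3 FPKM, a limit chosen after seeing the data, 2 were higher and 4 lower. The share of all genes past 2-fold was not computed under these settings. These counts therefore cannot be set against a background here. The median ratio stayed below 0 under every alternative run, from -0.17 to -0.06 around the reported -0.14, and was -0.06 after division by the median ratio of all genes (0.932). That division left 16 of the 18 past 2-fold, and ZNF426 (-0.99) and ZNF235 (-0.96) fell inside the limit. No ratio of the 18 changed sign under these scalings or the pseudocount of 0.1 FPKM. A cluster gap of 0.5 Mb gave 10 clusters of at least 5 genes with 240 members. With the first, narrower KRAB pattern 189 members had the box and 50 did not, with live medians of 3.30 and 6.06 FPKM and median ratios of -0.21 and -0.03, and all 18 still had it.

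No paired analysis was possible because the labels give no replicate numbers and each condition has 1 sample. Without replicates, the spread between samples of one condition is unknown, and the bounds of single libraries do not measure it. Most members lie under 10 FPKM, where fewer reads per gene limit precision.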
